A study of Mus musculus with 4 samples.

Results

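Complement components, regulators and receptors were examined in kidney RNA of Th3 mice and of control mice. The members were chosen by name: 47 gene names of the pathway were listed, 37 of them were carried by a probe, and these gave 38 genes and 55 probes out of 27574 genes and 41174 probes on the array. In Th3 mice beta-major and beta-minor, both adult beta-globin genes, are deleted, which models beta-thalassemia, an inherited anaemia. The labels give the other group as control kidney and do not state the strain background, age, sex or zygosity of either group, nor any treatment. The design counted 4 mutants and 4 controls, and 1 Th3 and 1 control RNA were hybridised together on each of 4 dual-colour oligonucleotide arrays. Th3 RNA carried the dye Cy5 on arrays 1 and 2 and the dye Cy3 on arrays 3 and 4.

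Complement is a cascade of plasma proteins that marks particles for uptake and punctures membranes. The classical pathway starts from C1q on antibody, the lectin pathway from mannose-binding lectins or ficolins on sugars, and the alternative pathway from C3 itself, amplified by factors B and D and stabilised by properdin. All of them cleave C3 and then C5, after which C5b, C6, C7, C8 and C9 assemble the membrane attack complex. Soluble and membrane-bound regulators stop the cascade on the body's own cells. The liver makes most of the plasma proteins, macrophages make C1q, and the kidney makes several components itself, among them C3 in the tubule.

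The libraries were checked before the members were read. Adult beta-globin RNA, measured by Hbb-bt, was at 8.48% of its control level (log2 ratio -3.56). Since strain background and zygosity are not stated, the part of the deletion in this value was not tested. All 10 tubule marker genes were well above background on every array. The tubule check is of detection only: by the test given below, 4 of the 10 were lower in Th3 kidney, Kap most, and 6 did not pass. The share of probes well above background was 61.7% to 72.1% by channel, and saturation was not seen in any gene spot. Ratios were more alike within a dye orientation than across: the correlation over genes was 0.67 for arrays 1 and 2 and 0.71 for arrays 3 and 4, against 0.43 to 0.53 between the pairs. The fit therefore carried a dye term beside the Th3 term, and dye and pair of kidneys cannot be told apart in it. Adjusted p-values are from limma with Benjamini-Hochberg adjustment over all genes tested, and a gene was called at an adjusted p under 0.05. The error behind these p-values is that between arrays of the same orientation. The labels do not say that each RNA came from its own animal, so this error may be technical, and precision is limited by the 4 arrays.

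A probe counts here as at background where the scanner did not flag it as well above background. Of the 38 genes, 31 had a probe bright enough to test, and the called ones ran in both directions. In Th3 kidney 3 rose, namely C7, Hc (which encodes C5) and Serping1, and 11 fell: all 3 chains of C1q, C2, Mbl1, Masp2, Cfp, C8a, C8g, Cd55 and Cd59b. The remaining 17 did not pass the test. Over all 17629 genes tested, 10.9% were called higher and 10.6% lower. The set was chosen with earlier results of these arrays known, so its counts are a description. The median log2 ratio of the 31 members was -0.04, against 0.00126 over all genes, and the median absolute log2 ratio was 0.28, against 0.11. With array pair as a random block in place of the dye term, 2 members were called higher and 2 lower, against 645 and 554 of all genes. Median centring in place of loess gave 3 members higher and 10 lower, beside 1938 genes higher and 1144 lower over all genes, where loess gave 1927 and 1866. Bulk RNA does not tell fewer cells of a type from less RNA per cell.

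**Figure D1:**
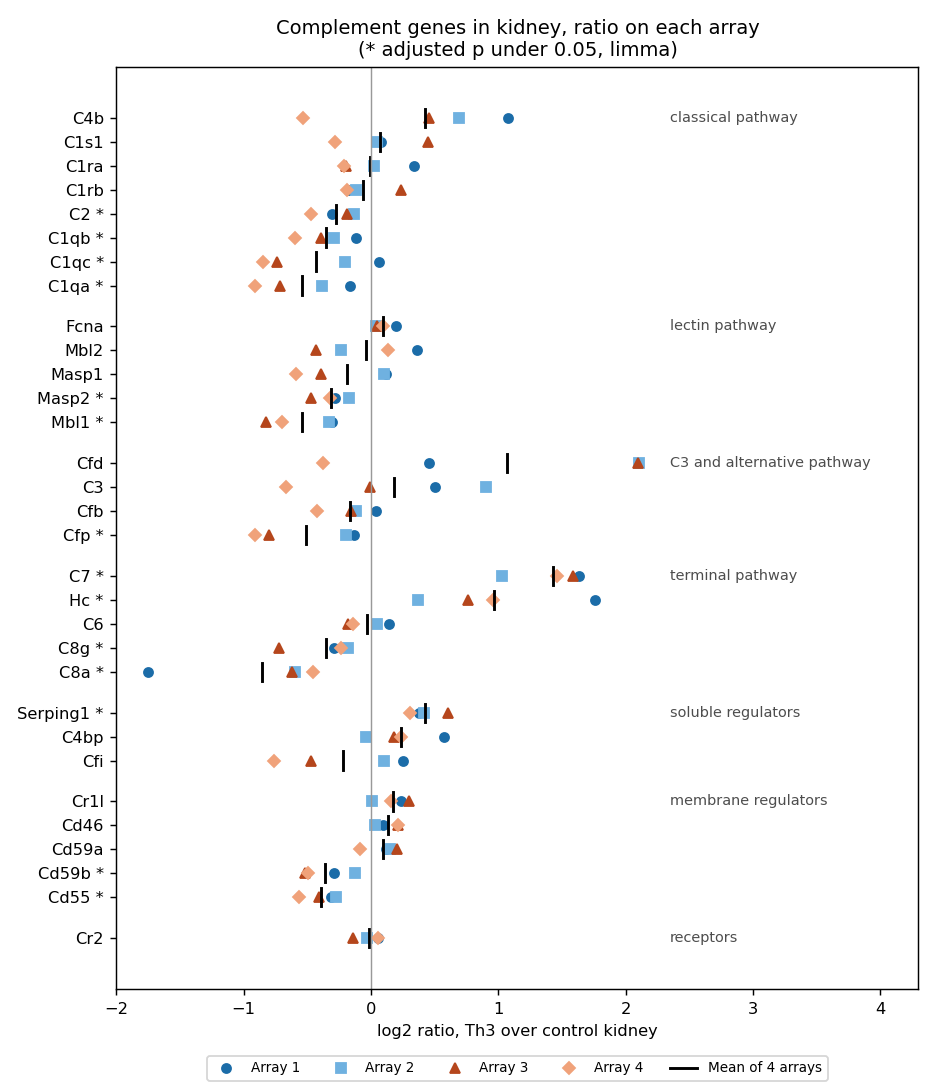
Log2 ratio of Th3 over control (horizontal axis) for the 31 complement genes tested, in order of their role in the cascade. Each symbol is 1 array, the black bar is the mean of 4 arrays, and a star marks an adjusted p under 0.05. C7 and Hc lie above 0 on every array, Cfd spans the axis from -0.38 to 2.11, and the C1q chains and Cfp lie lower on arrays 3 and 4 than on arrays 1 and 2.

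In the classical pathway, the 3 chains of C1q, which assemble into the molecule that recognises antibody, were all lower. C1qa had normalized signals of 675, 548, 666 and 543 in Th3 kidney on arrays 1 to 4, against 757, 715, 1093 and 1021 in control kidney. The groups did not overlap, and the 2 highest control values came from arrays 3 and 4. The log2 ratio of C1qa was -0.54 ± 0.33 (SD, n = 4 arrays, adjusted p = 0.0041), which put Th3 at 68.6% of control.

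C1qb had signals of 469.7, 372, 420.3 and 383 in Th3 kidney and of 511, 455, 553 and 579.7 in control kidney. Each array had the lower signal in Th3, although the groups overlapped, and the log2 ratio was -0.35 ± 0.20 (limma adjusted p = 0.0122, n = 4). For C1qc the signals were 2371, 1824, 1982 and 1682 in Th3 kidney and 2277, 2098, 3312 and 3029 in control kidney. Array 1 went the other way for C1qc, at a log2 ratio of 0.06, while arrays 3 and 4 gave -0.74 and -0.85. Its mean was -0.43 ± 0.43 (limma adjusted p = 0.0072, n = 4). With the random block none of the 3 chains passed, at adjusted p = 0.0514 for C1qa, 0.0670 for C1qb and 0.143 for C1qc, and without the dye term C1qc was at adjusted p = 0.120.

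The 3 chains are neighbours: on mouse build mm8 their probes lie on the minus strand of chromosome 4, C1qb at 136152739 to 136152798, C1qc at 136161927 to 136161986 and C1qa at 136168570 to 136168629. RefSeq promoter windows (GRCm38.p6) matched 30 of the 38 genes by symbol, among them C1qb and C1qc; C1qa was not matched and is not shown. Because these adjacent chains fell together, the 250 bases before each start are shown, with the motif GAGGAA or its reverse complement TTCCTC in capitals; GAGGAA is a core that the myeloid factor PU.1 and other ETS factors can bind.
C1qb, chr4:136886201-136886450, minus strand: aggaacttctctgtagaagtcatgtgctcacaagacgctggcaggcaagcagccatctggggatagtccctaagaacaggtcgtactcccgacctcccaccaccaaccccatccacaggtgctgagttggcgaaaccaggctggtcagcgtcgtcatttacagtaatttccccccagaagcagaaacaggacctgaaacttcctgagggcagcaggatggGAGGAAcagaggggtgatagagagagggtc
C1qc, chr4:136892915-136893164, minus strand: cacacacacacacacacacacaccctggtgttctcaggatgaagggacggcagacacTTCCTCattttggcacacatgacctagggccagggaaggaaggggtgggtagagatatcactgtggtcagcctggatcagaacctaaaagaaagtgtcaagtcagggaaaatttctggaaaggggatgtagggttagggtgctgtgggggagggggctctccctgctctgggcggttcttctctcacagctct
Each window holds the motif at 1 place, on the gene's own strand in C1qb and on the other strand in C1qc. Of all 32851 windows of this length, 23.3% hold it on either strand, and so do 4 of the 30 complement windows. The windows of C7 and Cfp hold no match. A match is a description of the letters.

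C1q is a product of macrophages, and macrophage genes were lower on the same arrays. Of 12 macrophage and myeloid genes, all tested, 8 fell, none rose and 4 did not pass. Their median log2 ratio was 0.15 on array 1, -0.15 on array 2, -0.79 on array 3 and -0.91 on array 4. Aif1, a cytoplasmic protein of macrophages, had a log2 ratio of -0.82 ± 0.60 and Lyz2, the macrophage lysozyme, one of -0.64 ± 1.11 (limma adjusted p = 0.0015 and 0.0095, n = 4 each). Lyz2 differed in sign between the pairs, at 0.45 and 0.15 on arrays 1 and 2 and -1.28 and -1.86 on arrays 3 and 4, a split that the dye term takes out of the error. In the dye term 4 of the 12 were called, against 0.993% of all genes. Arrays 3 and 4 thus carried the low values of both the C1q chains and the macrophage genes. The split was not confined to macrophage genes. Umod, the 1 of 10 tubule genes called in the dye term, was at 0.43, 0.28, -0.68 and -0.95 on arrays 1 to 4. The part of macrophage number in the C1q values was not tested.

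**Figure D2:**
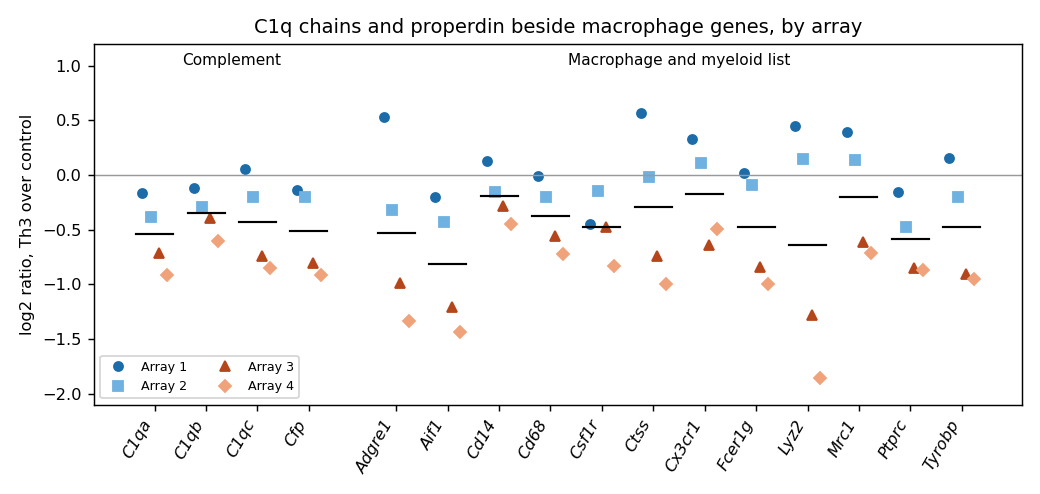
Log2 ratio of Th3 over control (vertical axis) on each array for the 3 C1q chains and properdin (Cfp), left, and for the 12 genes of the macrophage list, right. Symbols are arrays and bars are means of 4. In each of the 4 complement genes and in each of the 12 macrophage genes, arrays 3 and 4 lie below arrays 1 and 2.

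Of the rest of the classical pathway, C2 was the 1 gene called. C2, the protease that joins C4b to form the C3 convertase, fell to 82.6% of control, a log2 ratio of -0.28 ± 0.15 (limma adjusted p = 0.0345, n = 4). Its dimmer probe stood at -0.29, and the call was lost under 6 of 15 alternatives, among them without array 1 (adjusted p = 0.124) and without array 4 (adjusted p = 0.0915). The C1r and C1s proteases, which C1q carries, did not pass: C1ra was at -0.01, C1rb at -0.06 and C1s1 at 0.07, the last of which was 0.25 without array 4 (limma adjusted p = 0.0412) and -0.11 without array 3 (0.240). C1ra and C1rb are close copies, and how much each probe reads of the other was not tested.

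C4b, whose product is the C4 that binds to surfaces, varied from array to array. Its signals were 475, 414, 502 and 304 in Th3 kidney and 226, 257, 366 and 440.0 in control kidney. Th3 was higher on arrays 1 to 3 and lower on array 4, at log2 ratios of 1.07, 0.69, 0.46 and -0.53, and the mean of 0.42 ± 0.69 did not pass (limma adjusted p = 0.104, n = 4). Without array 4 it was 0.67 (adjusted p = 0.0158), without array 2 it was 0.52 (adjusted p = 0.0109), without array 1 it was 0.32 (adjusted p = 0.120) and without array 3 it was 0.17 (adjusted p = 0.258). C4a, a near-identical copy of C4b, had a probe at background on every array, and how far the C4b probe reads C4a was not tested.

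In the lectin pathway, Mbl1, which encodes 1 of the mannose-binding lectins of the mouse, was lower. Mbl1 had signals of 120.2, 136, 142 and 153 in Th3 kidney and of 148, 171, 250.4 and 249 in control kidney. Each array gave the lower value in Th3, and arrays 3 and 4 again gave the larger gaps. The log2 ratio was -0.54 ± 0.26 (limma adjusted p = 0.0023, n = 4), Th3 at 68.8% of control, and it passed under all 15 alternatives. The signals are dim and carry an added offset of 50, which shrinks such ratios; from the scanner's own processed signals the log2 ratio was -1.04. The 60-base probe maps over 2587 bases of the plus strand of chromosome 14 (40063322 to 40065908, mm8) and so reads across an intron. It is shown because Mbl1 is 1 of the 4 members called under every alternative.
Mbl1: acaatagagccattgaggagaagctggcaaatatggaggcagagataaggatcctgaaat

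Masp2, the protease of the lectin pathway that cleaves C4 and C2, had signals of 115, 110.5, 115 and 126 in Th3 kidney and of 139.7, 125, 159.8 and 158 in control kidney. It was lower on every array, at a log2 ratio of -0.31 ± 0.12 (limma adjusted p = 0.0127, n = 4), or -0.90 from the scanner's processed signals. The random block left it at adjusted p = 0.0532. The Masp2 call rests on its brightest probe, which is itself dim. The other Masp2 probes were too dim to test, at log2 ratios of -0.12 and 0.07. The second mannose-binding lectin, Mbl2, was at -0.04 ± 0.36 and did not pass. Neither did Masp1, the partner protease, at -0.19 ± 0.36 (-0.24 without array 3 and -0.14 without array 4, limma adjusted p = 0.0494 and 0.140). The ficolin Fcna, which was dim, was at 0.09 ± 0.07 and did not pass. In the control channel Fcna was well above background on 2 arrays only. Fcna thus entered the test through its Th3 channel, the higher one. It reached 0.79 from the scanner's processed signals and 0.33 from the authors' log2 ratios (limma adjusted p = 0.0113 and 0.0150). Fcnb, the other ficolin, was at background.

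C3, the protein on which all pathways meet, gave a different answer on each array. Its signals were 12695, 13550.1, 13958 and 9603 in Th3 kidney and 8952, 7254, 14043 and 15236 in control kidney. The log2 ratios were 0.50, 0.90, -0.01 and -0.67, so Th3 was higher on arrays 1 and 2, level on array 3 and lower on array 4. The mean was 0.18 ± 0.68 (limma adjusted p = 0.315, n = 4), and C3 passed under none of the alternatives. The bright C3 probe, on chromosome 17 at 56889328 to 56889387 (minus strand, mm8), was spotted 10 times on each array. The SD over these spots, a measure of spot noise within 1 hybridisation, was 0.021 to 0.038, beside the SD of 0.68 between arrays. Repeat spots say nothing of what set the arrays apart.

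**Figure D3:**
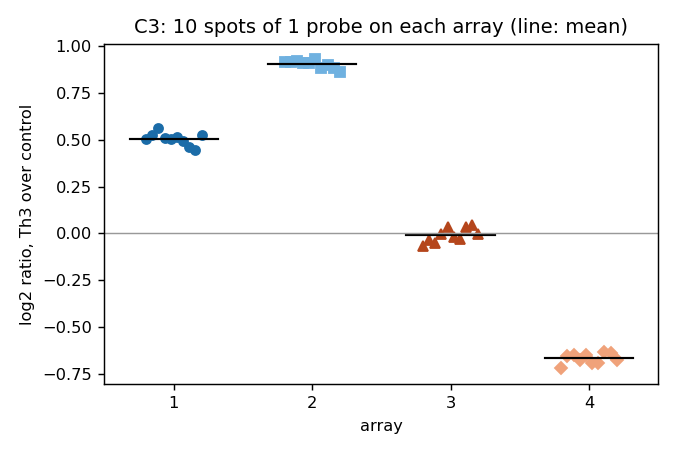
Log2 ratio of Th3 over control (vertical axis) for each of the 10 spots of the bright C3 probe on arrays 1 to 4 (horizontal axis), with the mean of each array as a line. The spots of an array lie within a narrow band, while the array means run from 0.90 on array 2 to -0.67 on array 4.

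Factor D, encoded by Cfd and also known as adipsin, cleaves factor B and is made mainly in fat. Cfd had signals of 34311, 41236, 48357 and 28562 in Th3 kidney and of 25022, 9581, 11308 and 37180.2 in control kidney. Th3 was much higher on arrays 2 and 3, somewhat higher on array 1 and lower on array 4. The log2 ratio of 1.07 ± 1.24 did not pass (limma adjusted p = 0.117, n = 4), although it was the 45th largest increase of all genes. Without array 1 it was 1.48 (adjusted p = 0.000465) and without array 4 it was 1.69 (adjusted p = 0.0284), while without array 2 it was 0.66 (adjusted p = 0.0956) and without array 3 it was 0.45 (adjusted p = 0.382).

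Fat genes also differed between the arrays. Of 9 listed adipose genes 8 were tested, of which 3 rose, 2 fell and 3 did not pass, and their median log2 ratio was 0.65 on array 1, 0.99 on array 2, 0.52 on array 3 and -0.79 on array 4. Ucp1, the uncoupling protein of brown fat, was at -3.40 ± 0.93 and Cidea, a lipid droplet protein, at -1.11 ± 0.95 (limma adjusted p = 0.0016 and 0.0060, n = 4 each). Adipoq, the hormone of white fat, is added here after its values were seen: its log2 ratios were 1.29, 1.88, 1.31 and -0.47. Array 4 was the lowest for Cfd and for Adipoq alike. Arrays 1 and 3 did not match: Cfd was at 0.46 and 2.10 there, and the adipose median at 0.65 and 0.52. The part of fat attached to the kidneys in the Cfd values was not tested.

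Properdin, encoded by Cfp, stabilises the alternative convertase and is made by leukocytes. Cfp had signals of 515, 496, 466 and 449 in Th3 kidney and of 566, 569, 813 and 845 in control kidney, with no overlap. Its log2 ratio was -0.51 ± 0.40 (limma adjusted p = 0.0027, n = 4), Th3 at 70.1% of control. The fall was larger on arrays 3 and 4, at -0.80 and -0.91, than on arrays 1 and 2, at -0.14 and -0.20, and Cfp was the 1 member called in the dye term (adjusted p = 0.0497). Without the dye term its Th3 call was lost at adjusted p = 0.0675, and with the random block at adjusted p = 0.0813. Of 7 listed neutrophil genes 3 were tested, of which 1 rose and 2 did not pass. The 1 that rose was S100a9, at 1.08 ± 0.60 (limma adjusted p = 0.0044, n = 4). The part of any leukocyte type in the Cfp value was not tested. Factor B, encoded by Cfb, the protease of the alternative convertase, was at -0.17 ± 0.19 and did not pass.

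The terminal pathway held the largest changes in both directions. C7, which anchors the forming attack complex in the membrane, had signals of 414, 350.0, 347 and 376 in Th3 kidney and of 134, 172, 115 and 137 in control kidney. Every Th3 value was more than every control value, and no array stood apart. The log2 ratio was 1.43 ± 0.28 (limma adjusted p = 0.00094, n = 4), a 2.69-fold higher level and the 17th largest increase of all genes. C7 passed under all 15 alternatives, at log2 ratios from 1.28 without array 1 to 2.43 from the scanner's processed signals. The authors' deposited table gives its fold as 4.107 with an adjusted p of 0.00007.

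C7 rests on 1 probe, which the array file names A530026G17 and which was matched to C7 through that synonym. It lies on the minus strand of chromosome 15, at 4994706 to 4994765 (mm8). The first 30 of its 60 bases are given because this probe carries the largest increase among the members.
C7: agattacacagcatatgaaaagtttggtga
Stromal cells are a known source of C7, and the fibroblast and pericyte list was mixed: 3 of 9 rose, 3 fell and 3 did not pass. Rgs5, a pericyte gene, was at 1.40 ± 0.08 and Col3a1, a fibrillar collagen of fibroblasts, at -0.99 ± 0.23 (limma adjusted p = 0.0002 and 0.0019, n = 4 each). In the endothelial list 1 of 7 rose and none fell. The part of any of these cell types in the C7 value was not tested.

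C5, encoded by Hc, supplies the anaphylatoxin C5a and the first piece of the attack complex. Hc had signals of 348, 217, 199 and 188 in Th3 kidney and of 103, 168, 118 and 97 in control kidney. The groups did not overlap, but array 1 gave a log2 ratio of 1.76 and array 2 one of 0.37. The mean was 0.96 ± 0.59 (limma adjusted p = 0.0201, n = 4), 1.95-fold, and in the control channel Hc was well above background on 3 arrays only. Hc thus entered the test through its Th3 channel, the higher one. A filter asking for both channels left Hc untested, and 2 members were then called higher. Hc was measured under the other alternatives. Among these, Hc missed the threshold without array 3 (adjusted p = 0.0652), without array 4 (0.0763), with the random block (0.0579) and with intensity-dependent robust variances (0.0657). Without array 1 the log2 ratio was 0.61, and from the scanner's processed signals it was 2.16.

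Hc is chiefly a liver gene, and liver genes were higher too. Of 10 liver genes, all tested, 7 rose and 3 did not pass. Apoa1, among those that rose, was well above background in the control channel on 2 arrays only. Apoa1 thus entered the test through its Th3 channel, the higher one. The median log2 ratio of the 10 was 1.12 on array 1, 0.34 on array 2, 0.50 on array 3 and 0.54 on array 4. Ahsg, the secreted liver protein fetuin-A, was at 1.99 ± 0.85 and the fibrinogen chain Fgb at 1.13 ± 0.22 (limma adjusted p = 0.0070 and 0.0005, n = 4 each). Array 1 was the highest, and array 2 the lowest, for Hc and for the liver median alike. Among other members that the liver also expresses, C9 and C8b were at background in both groups. C8a, C8g, C2, Mbl1 and Masp2 fell, and Serping1 rose. C3, C4b, C4bp, C6, Cfb, Cfi, Mbl2, Masp1, C1ra and C1s1 did not pass. The part of liver RNA in the Hc value was not tested.

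**Figure D4:**
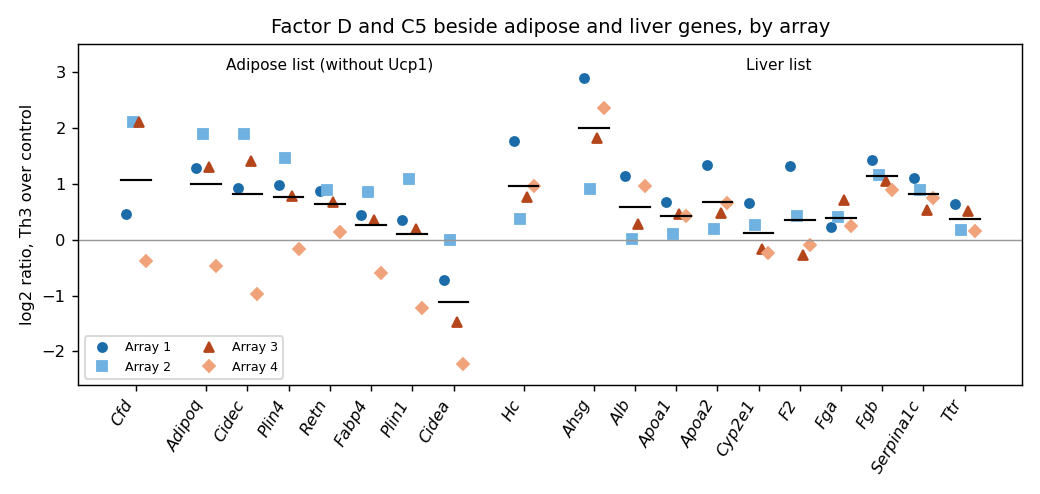
Log2 ratio of Th3 over control (vertical axis) on each array for factor D (Cfd) beside 7 adipose genes, and for C5 (Hc) beside the 10 liver genes. Symbols are arrays and bars are means of 4; Ucp1 lies outside the axis and is left out, and its log2 ratios of -4.02, -2.01, -3.78 and -3.80 were lowest on array 1. Array 4 is the lowest point for Cfd and for each of the 7 adipose genes shown, and array 1 is the highest for Hc and most liver genes.

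C8 is built from 3 chains, alpha, beta and gamma, encoded by C8a, C8b and C8g. C8a had signals of 564, 934, 861 and 904 in Th3 kidney and of 1897, 1410.4, 1322 and 1237 in control kidney. The groups did not overlap, and array 1 lay far below the other arrays, at a log2 ratio of -1.75 against -0.62 to -0.45. The mean was -0.85 ± 0.60 (limma adjusted p = 0.0171, n = 4), Th3 at 55.3% of control, the largest decrease among the members. Without array 1 the log2 ratio was -0.57 and still passed. Without array 3 it was -0.81 (adjusted p = 0.0719), without array 4 -0.90 (adjusted p = 0.0535), and the random block left it at adjusted p = 0.0725.

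C8g had signals of 491, 541, 565 and 687 in Th3 kidney and of 600.3, 612, 932 and 808 in control kidney. It was lower on each array, most on array 3, at a log2 ratio of -0.36 ± 0.25 (limma adjusted p = 0.0309, n = 4). That call was lost without array 3 (adjusted p = 0.0598), without the dye term (0.0643) and with the random block (0.101). C8b, a neighbour of C8a on chromosome 4, was at background in both groups. C6, the component that joins C5b before C7, was at -0.03 ± 0.15 and did not pass, and C9, which forms the pore, was at background.

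Among the soluble regulators, Serping1, the inhibitor of C1r, C1s and the MASP proteases, was higher. Its signals were 3844, 3337, 3419.8 and 3937 in Th3 kidney and 2955, 2502, 2251 and 3190.0 in control kidney. The groups did not overlap, and the arrays ranged only from 0.30 to 0.60 on the log2 scale. The mean log2 ratio was 0.43 ± 0.13 (limma adjusted p = 0.0082, n = 4), 1.34-fold, and it passed under all 15 alternatives, from 0.35 to 0.50. The Serping1 probe, on the minus strand of chromosome 2 from 84566650 to 84568156 (mm8), reads across an intron and is shown as that of a member called under every alternative.
Serping1: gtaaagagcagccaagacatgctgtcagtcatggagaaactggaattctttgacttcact
Factor I, encoded by Cfi, which cuts C3b and C4b, was at -0.22 ± 0.48, above control on arrays 1 and 2 and below it on arrays 3 and 4. C4bp, its cofactor for C4b, was at 0.24 ± 0.25. Neither passed with 4 arrays, while Cfi without array 3 was at -0.30 and C4bp without array 2 at 0.39 (limma adjusted p = 0.0399 and 0.0060). Cfi without array 4 was at -0.15 and C4bp without array 1 at 0.08 (limma adjusted p = 0.164 and 0.655).

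**Figure D5:**
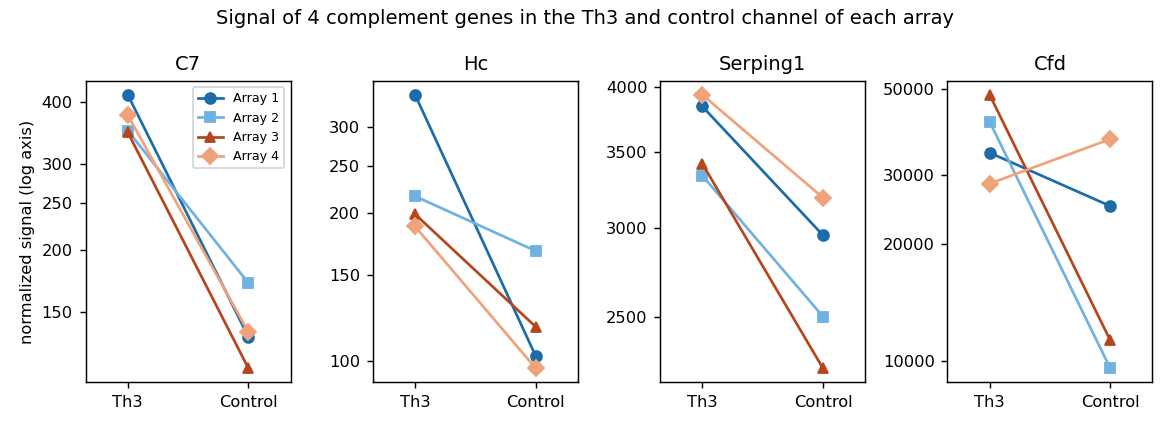
Normalized signal (vertical log axis, its own range in each panel) in the Th3 channel, left, and the control channel, right, for C7, Hc, Serping1 and Cfd, with a line for each array. The lines of C7, Hc and Serping1 all run downward to control, and that of Cfd on array 4 runs upward.

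Membrane regulators keep complement from attacking the body's own cells, and 2 of 5 tested were lower. Cd55, decay-accelerating factor, which takes C3 convertases apart, had signals of 183, 207, 191 and 200.1 in Th3 kidney and of 227, 250.4, 254 and 297 in control kidney. The groups did not overlap. The log2 ratio was -0.39 ± 0.13 (limma adjusted p = 0.0066, n = 4), Th3 at 76.2% of control, and it passed under all 15 alternatives. A dimmer Cd55 probe, which maps to contiguous genome, stood at -0.09 ± 0.06 and did not pass (limma adjusted p = 0.288, n = 4).

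The mouse has a second copy of this gene, Cd55b, which is expressed mainly in the testis, and the probes of the pair share sequence. The bright Cd55 probe maps over 7987 bases of the minus strand of chromosome 1 (132267894 to 132275880, mm8), and the Cd55b probe over 21938 bases (132216242 to 132238179, same strand). Their longest common run, 26 of 60 bases, is in capitals.
Cd55: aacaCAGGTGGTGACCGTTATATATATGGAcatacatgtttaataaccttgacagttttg
Cd55b: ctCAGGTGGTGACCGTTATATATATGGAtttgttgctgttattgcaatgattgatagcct
The Cd55b probe, which holds the same run, was at background on every array.

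Cd59b, a mouse copy of the inhibitor that blocks C9, had signals of 355, 315, 280.0 and 285 in Th3 kidney and of 434, 345, 401 and 402 in control kidney. It was lower on every array, at a log2 ratio of -0.36 ± 0.18 (limma adjusted p = 0.0082, n = 4), and at adjusted p = 0.0552 with the random block. A second Cd59b probe was at background on every array, at -0.03. How far the brighter Cd59b probe reads the close copy Cd59a was not tested. The other copy, Cd59a, was at 0.09 ± 0.12 and did not pass, with a second probe at 0.16. Cr1l, known as Crry, the rodent regulator of C3 convertases, was at 0.17 ± 0.13 and did not pass. Cd46, a cofactor of factor I, was at 0.14 ± 0.09; its groups did not overlap, but its control signal was well above background on 2 arrays only. From the scanner's processed signals Cd46 was at 0.77 and from the authors' log2 ratios at 0.37 (limma adjusted p = 0.0103 and 0.0159). In all, 8 of the 31 members had groups that did not overlap, against 21% of all genes.

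The receptors among the members, Cr2, C5ar1 and C3ar1, were near the limit of detection. Cr2, the receptor of B cells and follicular dendritic cells for C3 fragments, was at -0.02 ± 0.09 and did not pass, while 2 of the 3 B cell genes tested fell. C5ar1, the receptor of C5a, was at background on every array, and C3ar1, the receptor of C3a, passed background on some arrays only. For neither receptor was a difference detectable at these signals.

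Several members lie in clusters, and differences between neighbours were not tested. On chromosome 1, Cd55 fell while C4bp, Cr1l, Cd46 and Cr2 did not pass. On chromosome 17, C2 fell, at -0.28, and its neighbour Cfb, at -0.17, did not pass, nor did C4b. On chromosome 15, C7 rose beside C6, which did not pass, and C9, which was at background. The C1q chains of chromosome 4 were the cluster in which every member was called in 1 direction.

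Outside the members, a list of 21 other genes of the system had 13 tested, of which 2 rose, 6 fell and 5 did not pass. Clu, the soluble inhibitor of the attack complex also known as clusterin, fell most, at a log2 ratio of -1.01 ± 0.25, and Vtn, vitronectin, another soluble inhibitor of that complex, rose by 0.61 ± 0.35 (limma adjusted p = 0.0004 and 0.0183, n = 4 each). Colec11, a collectin of the lectin pathway, fell by 0.62 on the log2 scale. Itgax and Itgb2, the chains of complement receptor CR4, were at -0.99 and -0.28, and both fell. Cpn1, a chain of the carboxypeptidase that inactivates C3a and C5a, fell by 0.29, and the C1r-like protease C1rl fell by 0.28. Cd93, a surface protein of endothelium and myeloid cells once proposed as a C1q receptor, rose by 0.44 ± 0.08.

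Genes of the acute phase and of the cytokines that induce complement were also divided. Of 11 tested of 14 listed, 4 rose, 3 fell and 4 did not pass. Hp, haptoglobin, an acute phase protein that binds free haemoglobin, was at 1.30 ± 0.77, and Cebpd, a transcription factor of the acute phase response, at 0.98 ± 0.46 (limma adjusted p = 0.0066 and 0.0072, n = 4 each). The other rises were in Lcn2 and Cebpb, by 0.74 and 0.54 on the log2 scale. The falls were in Il1b, Irf1 and Ifng, by 0.37, 0.29 and 0.23 on the log2 scale. The gene Kap, which androgens induce in the mouse kidney tubule, was at -3.34 ± 0.32 (limma adjusted p = 0.0002, n = 4), and since the labels give no sex, its part in the complement values was not tested.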

How the data were processed

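Total RNA was amplified from an oligo-dT primer and labelled, per the labels' protocols. Spot and background intensity came, per the file headers, from Agilent Feature Extraction 9.5.3.1 (grid 014868, build mm8); the scanner's log10 ratio, per the file headers, and the authors' deposited table's log2 ratios were used as checks and as an alternative. The authors' combined table also holds a signed fold, a score whose rule no source used here states, and an adjusted p-value.

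With R 4.3.3, limma 3.58.1 and the data.table package in version 1.17.8, mean signals were background-corrected by normexp (offset 50, local median) and loess-normalized (span 0.3, 4 iterations); control spots and outliers, at most 186 an array, had weight 0. Spots were averaged to 41174 probes, and 26434 were kept: well above background on all 4 arrays in the Th3 or the control channel, with a value on at least 3 arrays. Each gene was read from its brightest kept probe. Probe names were updated through a RefSeq gene list (GRCm38.p6), 23374 by accession. Ratios were turned to Th3 over control and fitted with lmFit and eBayes on a Th3 and a dye term (2 residual degrees of freedom, 4.52 prior). In 23 genes the fit rests on 3 arrays; all members tested had 4. Signals quoted are linear, per channel after loess and Aquantile, and include the offset, so dim ratios are understated; signals of different probes are not comparable. A ± is the SD over arrays. On simulated data of 17629 genes, 60 of 100 genes changed 1.5-fold and 83 of 100 changed 2-fold were recovered, with 6 false calls. These rates belong to the simulated data and are not error rates of these arrays. All arrays share 1 slide.

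Members and lists were chosen with earlier results of these data known. Every member is named. Values on each array are given for members called with an absolute log2 ratio of at least 0.3, for C3 and the C1q chains, and also for C4b and Cfd, chosen after their values were seen. Of other lists, called genes with the largest absolute log2 ratio are named, except for the B cell and endothelial lists, which are given by count. Every called gene of the other complement genes and of the acute phase list is named. Outside this rule, Umod is named for its call in the dye term, and Adipoq was added after its values were seen. The deposited selections and copies of the combined table were not used. Some single results are not reported here.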

Additional observations from a re-analysis of the deposited data

Results flagged for a closer look

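The log2 ratio of C8a on array 1, -1.75, stood apart from the other 3 arrays, which lay between -0.62 and -0.45: its gap to the nearest of them took 0.872 of the whole range. Chance sets apart about 1 in 20 groups of this size, and each of the 31 members tested was examined in this way.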

How the results depend on the processing

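Of the 14 called members, 4 (C7, Serping1, Cd55 and Mbl1) passed with 1 sign under each of 15 alternatives, 10 missed the threshold under at least 1, and 0 changed sign; 8 members not called passed under at least 1. With array pair as a random block (consensus correlation 0.18), 645 genes were higher and 554 lower, and 2 members lower. Without the dye term, 1102 genes were higher and 888 lower, all of them among those called with it, and 7 members were lower. Members called higher numbered 5 with Agilent's processed signals, beside 1706 of all genes, and 5 with the authors' log2 ratios, beside 1953. Cd46 and Fcna were the added genes, and both entered the test through the Th3 channel, the higher one. Median centring gave 1144 genes lower, and separate channels gave 2982 higher. Members called in the dye term numbered 22 with median centring, where 72.3% of all genes were called in it. They numbered 0 with no background subtraction, processed signals, no filter on dim probes or the authors' ratios. The share of all genes called in the dye term was then 0.0737%, 0.0227%, 0.0617% and 0.732%. Leaving out 1 array gave 2 to 5 members higher, 9 to 11 lower and 0 to 7 in the dye term. The same gave 1325 to 1612 genes higher, 1246 to 1578 lower, and 0% to 2.84% of all genes in the dye term. The median of the members stayed below 0 under each alternative. The cause of these shifts was not tested. Dim signal limits 7 members that could not be tested, and ratios of dim probes grew with processed signals. Each ratio already pairs the Th3 and the control sample of 1 array; the replicate numbers name arrays and give no further block.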
